A study of Arabidopsis thaliana with 6 samples.

Results

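The nuclear genes that encode the light-harvesting antenna and the photosystems of the chloroplast were followed across dark-grown Arabidopsis thaliana seedlings treated with lasalocid sodium (LS). The set held 47 loci, of 29030 loci that the array names. Its members were all non-control spots whose listed transcript belongs to the 6 LHCA loci, the 14 LHCB loci, 12 nuclear loci for photosystem I subunits (PSA), 11 for photosystem II subunits (PSB) and 4 for electron carriers, namely the plastocyanins PETE1 and PETE2, the Rieske protein PETC and the ferredoxin FD2. These loci had 142 of the 43603 probes, and 138 of them could be tested, of 32349 in all. LS is a carboxylic polyether ionophore, a compound that binds cations and moves them through lipid membranes.

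The comparison asked how LS changed gene expression in seedlings. The LS group was 3 samples of whole Col-0 wild-type seedlings that had grown for 3 days in the dark at 22 °C and were then kept for 24 h in liquid Murashige and Skoog medium with 1 μM LS, still in darkness. The control group was 3 samples handled in the same way with 0 μM LS. No sample carried a mutation or transgene, and both groups shared the darkness, the sucrose in the medium and the move from solid to liquid culture. The samples were whole seedlings, so cotyledon, hypocotyl and root RNA were measured together, and fewer cells of a type cannot be told apart from less RNA per cell.

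Light-harvesting proteins bind chlorophylls and carotenoids and pass excitation energy to the reaction centres. LHCA proteins surround photosystem I. LHCB proteins form the trimers and the single-protein antennae of photosystem II. The core reaction-centre proteins are encoded in the chloroplast, whereas the members followed here are encoded in the nucleus, made in the cytosol and imported. Many of them are known for low expression in darkness and for strong induction by light, and their expression is also known to fall when plastid function is disturbed.

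Each value below is a probe's log2 processed signal minus the 75th percentile of its array, called its level. A log2 fold change is the mean level on the LS arrays minus that on the control arrays. A probe was called when limma gave a Benjamini-Hochberg adjusted p under 0.05 over all tested probes and the fold change was at least 1.5. With this scaling all 138 tested probes of the 47 loci had a log2 fold change below 0. The median was -0.59, which is 66.4% of the control level, with quartiles of -0.70 and -0.45 and a range of -2.68 to -0.03. Over all tested probes 54% were below 0 and the median was -0.04. Only 5 of the 138 probes were called lower, on LHCB1.4, LHCB1.1, LHCA1, LHCB4.2 and PSAN, and 0 were called higher, against 2.45% called lower and 2.6% called higher over all tested probes. At an unadjusted p under 0.05, limma gave 76 member probes, all of them lower on the LS arrays. Over all tested probes it gave 8265 of 32349, of which 3653 were higher with LS. Most single probes were thus below the control level without being called.

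Every LS array was below every control array on 69 of the 138 probes, against 18.6% of all tested probes, and on the other 69 the groups overlapped. The separation was counted and not tested probe by probe, since with 3 arrays a group the smallest p of an exact permutation test is 0.1. Most of the member probes were bright, with a mean level above the 75th percentile on 102 of 138. Of these 102, all were below 0 and 58 were separated, against 59.3% below 0 and 20% separated over the 10860 tested probes that were as bright. The 36 dimmer member probes had a median of -0.51, with 11 separated, and the brighter ones a median of -0.61. Across the 138 probes the fold change was only weakly related to the mean level (Pearson r = -0.13, Spearman rho = -0.14, described across probes, several of which share a locus).

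The shift was not equal on the 3 LS arrays. The median deviation of the 138 probes from their control means was -0.27, -0.73 and -0.79 on LS arrays 1, 2 and 3, and 0.23, -0.01 and -0.21 on control arrays 1, 2 and 3. LS array 1 was thus close to control array 3, while LS arrays 2 and 3 were well apart from every control. Control array 1 gave the highest of the 6 values on 121 probes, and LS arrays 2 and 3 gave the lowest on 63 and 69 probes. LS array 1 and the 3 controls shared a slide, and LS arrays 2 and 3 were on the other. Within the shared slide, that is LS array 1 against the 3 controls, the median over the members was -0.27, and 116 of 136 probes were below 0. The median of all tested probes there was -0.02. Control array 3, which was untreated, had 128 of 138 member probes below the mean of the controls, itself included. The count on LS array 1 was thus within what an untreated array showed. For LS arrays 2 and 3 the slide and the treatment cannot be told apart.

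**Figure D1:**
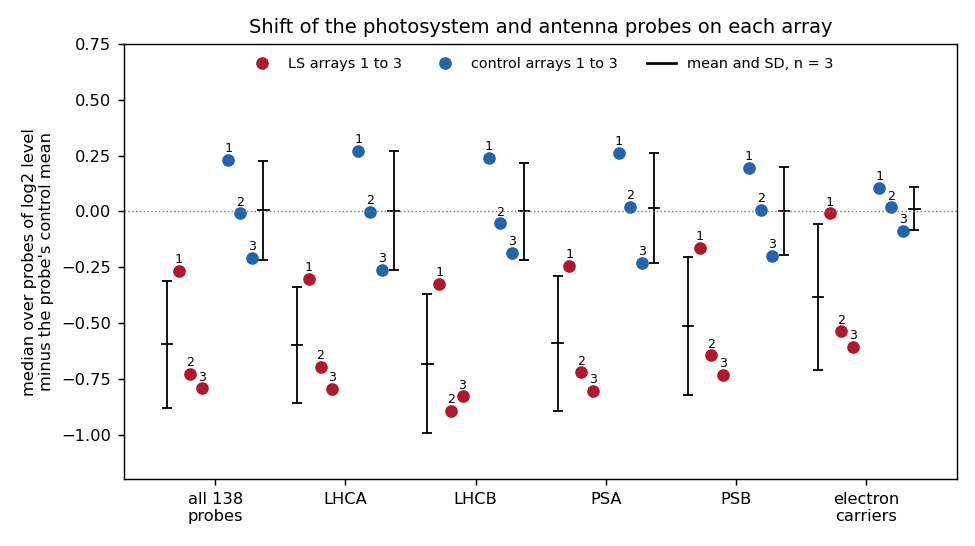
Median over probes of the log2 level minus the probe's own mean on the control arrays (vertical axis), for all 138 probes and for each class. Red points are LS arrays and blue points control arrays, each with its replicate number, and the bars beside them are the mean and SD of 3 arrays. LS array 1 sits at -0.27 over all probes, between control array 3 at -0.21 and the other LS arrays at -0.73 and -0.79.

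The level depended on the scaling as well. When the arrays were scaled on their spike-in controls, the log2 fold change of each probe measured on all 6 arrays moved up by 0.60, the median of all tested probes became 0.56 and that of the members 0.01, with 67 of 138 probes still below 0. The median of the members was 0.55 below that of all tested probes under both scalings. This equality follows from the construction, since each scaling subtracts 1 constant per array, and is no separate evidence. The spike-in controls stood 2.47, 2.27 and 1.25 above the 75th percentile on LS arrays 1, 2 and 3, and 2.39, 2.48 and 2.94 above it on control arrays 1, 2 and 3. LS array 3 thus stood apart, and no source used here gives the amount of spike-in RNA added per sample. In a spike-in scaling without LS array 3, chosen after seeing the data, the shift was 0.23, the median of the members was -0.27 with 126 of 138 probes below 0, and that of all tested probes was 0.17, a gap of 0.44. With the 75th percentile and without LS array 3, the same gap was 0.44 as well, again by construction. All signs below are relative to the 75th percentile, so among probes measured on all 6 arrays those with a log2 fold change above -0.60 changed sign under spike-in scaling. The values given below with spike-in scaling are from all 6 arrays.

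The LHCA genes, whose products form the antenna belt of photosystem I, had a median log2 fold change of -0.57 over 19 probes, and 0.03 with spike-in scaling. Of these probes 11 were separated and 1 was called, against 18.6% separated and 2.45% called lower over all tested probes. The median within the shared slide was -0.30. LHCA1 (AT3G54890) had the lowest values of the class, with 5 tested probes between -1.42 and -0.53. Its called probe A_84_P810829, listed for transcript AT3G54890.4, was at 0.67, 0.66 and 0.36 on the LS arrays, against 1.88, 1.34 and 1.28 on the control arrays. All LS arrays lay below all controls, and the log2 fold change was -0.94 ± 0.21 (SE, n = 3 each), 52.2% of control, with a limma adjusted p of 0.0495. The other probe of the same transcript, A_84_P861734, gave 0.38, -0.03 and 0.12 on the LS arrays and 1.19, 1.04 and -0.17 on the controls, where control array 3 fell below every LS array. Its log2 fold change was -0.53, and 0.07 with spike-in scaling.

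The remaining LHCA1 probes stand for transcripts AT3G54890.1 and AT3G54890.2. A_84_P20347 read 2.73, 2.53 and 1.88 with LS and 2.95 to 3.58 in the controls, which gave a log2 fold change of -0.81 (limma adjusted p = 0.122). A_84_P861030 read 0.07, 0.31 and -1.24 with LS and 1.69, 1.00 and 0.73 in the controls, which gave a log2 fold change of -1.42 (limma adjusted p = 0.0968). On that probe LS array 3 was far below the other two LS arrays, and the spread between LS arrays was wide (SD 0.83). A_84_P810835 read -4.05, -3.73 and -4.89 with LS and -2.71, -4.00 and -3.18 in the controls, where control array 2 was below LS array 2.

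LHCA3 (AT1G61520), a subunit of the antenna belt, had the brightest LHCA probe. A_84_P15141 was at 4.05, 3.81 and 3.56 on the LS arrays, against 4.61, 4.50 and 4.16 on the control arrays. The groups did not overlap, although the gap between LS array 1 and control array 3 was small, and the log2 fold change of -0.62 ± 0.20 (SE, n = 3 each) was not called (limma adjusted p = 0.110). LHCA2 had all 3 of its probes separated, between -0.76 and -0.67, and LHCA4 had 3 of 6, between -0.60 and -0.15. LHCA5 and LHCA6, which attach photosystem I to the chloroplast NADH dehydrogenase-like complex, had 1 probe each, at -0.51 and -0.23.

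The LHCB genes, which encode the antenna of photosystem II, had a median of -0.69 over 49 probes, or 62.1% of control, and -0.09 with spike-in scaling. They held 3 of the 5 called probes and 31 of the 69 separated ones. Over all tested probes 2.45% were called lower and 18.6% were separated. The median of the LHCB probes within the shared slide was -0.32. LHCB1, the main protein of the light-harvesting trimers, comes from 5 loci with 21 tested probes, a median of -0.74 and 16 separated probes. LHCB2, the trimer partner that is phosphorylated in state transitions, had 8 tested probes on 3 loci, between -0.64 and -0.12, and on none of them were the groups separate. LHCB3 to LHCB6, which cover the third trimer protein and the single-protein antennae, had a median of -0.70 over 20 probes, 15 of them separated. The difference between LHCB1 and LHCB2 was not tested.

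LHCB1.4 (AT2G34430) carried the largest fall of the 47 loci. Probe A_84_P160283 was at -2.27, -2.21 and -2.01 on the LS arrays, against 0.76, 0.30 and 0.49 on the control arrays. The 2 groups were separated by over 2 log2 units and each was tight, with SDs of 0.13 and 0.23. The log2 fold change was -2.68 ± 0.18 (SE, n = 3 each), 15.6% of control, with a limma adjusted p of 0.0034. The other tested probe of this locus gave a different size. A_84_P857496, listed for the same transcript AT2G34430.1, was at 2.90, 2.29 and 1.93 with LS and at 3.42, 2.90 and 2.57 in the controls, so that LS array 1 lay among the controls. Its log2 fold change was -0.59 ± 0.31 (SE, n = 3 each, limma adjusted p = 0.274), and 0.01 with spike-in scaling.

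Taken within each array, the 2 probes of LHCB1.4 differed by -5.17, -4.50 and -3.94 on the LS arrays and by -2.66, -2.61 and -2.08 on the control arrays. This difference is free of the scaling, and its mean was 2.09 log2 units further apart with LS, with no overlap between the groups. The 2 probes therefore changed unequally, and nothing in the files says which of them follows the LHCB1.4 transcript. The other 2 probes of the locus were not tested, since they were well above background on no LS array and on at most 1 control array. LHCB1.4 is the neighbour of LHCB1.5 in the gene order of the TAIR10.1 reference, and LHCB1.2, LHCB1.1 and LHCB1.3 follow each other in another row. The LHCB1 genes are near-identical copies, so a probe can read more than its named locus, and the values of single LHCB1 loci are uncertain.

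LHCB1.1 (AT1G29920) had the second-largest fall among called probes, and again on 1 probe of several. A_84_P210788 was at 2.68, 2.105 and 2.06 on the LS arrays, against 4.27, 3.84 and 3.26 on the control arrays. The groups were separate, and the log2 fold change was -1.51 ± 0.29 (SE, n = 3 each), 35.2% of control, with a limma adjusted p of 0.0366. A_84_P806483 was at 5.22 and 4.67 on LS arrays 1 and 2, with LS array 3 marked as an outlier and left out of its fit, and at 5.79, 5.40 and 5.46 in the controls. Its log2 fold change was -0.60, and that of the third probe, A_84_P806534, was -0.84, from -2.36, -3.42 and -2.47 with LS and -1.67, -1.94 and -2.13 in the controls. All 3 probes were separated, and only the first was called.

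The rest of LHCB1 varied less. LHCB1.3 (AT1G29930) had the brightest LHCB probe, A_84_P862271, at 6.85, 6.27 and 6.32 on the LS arrays, against 7.13, 7.06 and 7.02 on the control arrays. The controls were tight (SD 0.06) and all above the LS arrays, and the log2 fold change was -0.58 ± 0.20 (SE, n = 3 each, limma adjusted p = 0.119), and 0.02 with spike-in scaling. The 9 probes of LHCB1.3 spanned -0.84 to -0.26, with 6 separated. LHCB1.2 had 3 probes between -0.90 and -0.68, all separated, and LHCB1.5 had 4 between -0.93 and -0.66, with 3 separated.

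LHCB4.2 (AT3G08940), a form of the minor antenna protein that links trimers to the photosystem II core, had 4 tested probes of nearly the same fold change. Probe A_84_P807262 was at -0.05, -0.61 and -0.71 on the LS arrays, against 0.73, 0.41 and 0.48 on the control arrays. The log2 fold change was -1.001 ± 0.22 (SE, n = 3 each), 49.97% of control, with a limma adjusted p of 0.0460. The other 3 probes gave -1.01, -0.98 and -0.78 and were not called, with adjusted p of 0.072 to 0.126 by limma. A_84_P20202 read 3.05, 2.69 and 1.87 with LS and 3.74, 3.34 and 3.54 in the controls. A_84_P807250 read 1.66, 1.096 and 0.73 with LS and 2.38, 1.95 and 2.08 in the controls. A_84_P861701 read 0.49, 0.26 and -0.24 with LS and 1.37, 0.88 and 0.60 in the controls. On all 4 probes every LS array was below every control and LS array 1 was the highest of the LS arrays. The related LHCB4.1 had 5 probes between -0.69 and -0.30, with 1 separated, and LHCB4.3 a single one at -0.27.

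The other antenna proteins of photosystem II had no called probe. LHCB3, the third trimer protein, had 4 probes between -0.70 and -0.63, all separated. LHCB6, the minor antenna found in land plants, had 3 between -0.94 and -0.71, all separated, and the lowest of these was fitted without LS array 1, which was marked as an outlier there. LHCB5, another minor antenna, had 3 between -0.90 and -0.62, with 2 separated.

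**Figure D2:**
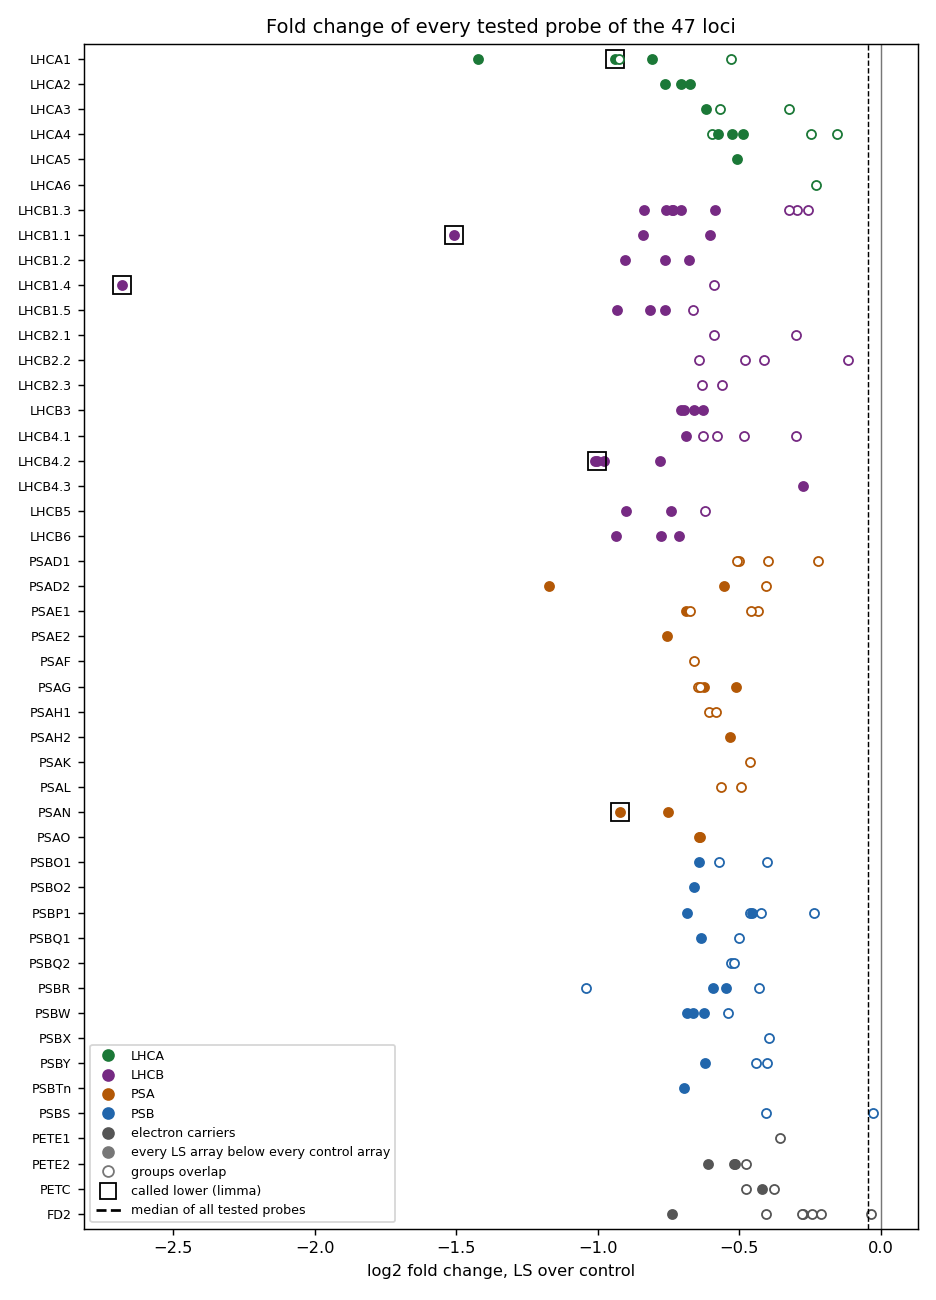
Log2 fold change, LS over control (horizontal axis), of every tested probe of the 47 loci, one row per locus and coloured by class. Filled points are probes with every LS array below every control array, open points overlap, squares mark the 5 called probes, and the dashed line is the median of all tested probes (-0.04). All 138 points lie left of 0 with scaling to the 75th percentile, and 71 of them would lie right of 0 with spike-in scaling.

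The nuclear subunits of photosystem I had a median log2 fold change of -0.58 over 27 probes, and 0.02 with spike-in scaling. Of these probes 10 were separated and 1 was called, against 18.6% separated and 2.45% called lower over all tested probes. The median within the shared slide was -0.24. The called probe belonged to PSAN (AT5G64040), a subunit on the lumen side where plastocyanin docks. A_84_P811589, listed for transcript AT5G64040.2, was at 0.63, 0.35 and 0.01 on the LS arrays, against 1.36, 1.28 and 1.12 on the control arrays. The groups were separate, and the log2 fold change was -0.92 ± 0.20 (SE, n = 3 each), 52.8% of control, with a limma adjusted p of 0.0454. The other PSAN probe, A_84_P10324 for transcript AT5G64040.1, read 2.07, 1.61 and 1.15 with LS and 2.41, 2.40 and 2.27 in the controls, which was also separate but not called (log2 fold change -0.75, adjusted p = 0.108 by limma).

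PSAF (AT1G31330), which also takes part in plastocyanin docking, had the brightest probe of the class. A_84_P22465 was at 4.64, 5.40 and 5.09 on the LS arrays, against 6.10, 5.94 and 5.06 on the control arrays. Control array 3 lay among the LS arrays here, and the log2 fold change of -0.66 ± 0.32 (SE, n = 3 each) was not called (limma adjusted p = 0.243). PSAD and PSAE, the stromal subunits at the ferredoxin docking site, each come from 2 loci. The locus medians were -0.45 for PSAD1 and -0.55 for PSAD2, and -0.57 for PSAE1 and -0.75 for PSAE2. One PSAD2 probe, A_84_P23709, was at -1.17 but was not called (limma adjusted p = 0.178). On that probe LS array 1 was at -1.55, against 0.01 and 0.47 on LS arrays 2 and 3.

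The subunits that hold the antenna to photosystem I had closer values. PSAG and PSAK flank the LHCA belt, and their locus medians were -0.63 and -0.46. PSAH, PSAL and PSAO lie where light-harvesting trimers dock. PSAH1 was at -0.59, PSAH2 at -0.53, PSAL at -0.53 and PSAO at -0.64, each as the median of its 1 or 2 probes. None of these probes was called, and those of PSAH1, PSAK and PSAL overlapped between the groups.

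The nuclear subunits of photosystem II had a median of -0.53 over 28 probes, and 0.07 with spike-in scaling. Of these probes 12 were separated and 0 were called, against 18.6% separated and 2.45% called lower over all tested probes. By limma 14 had an unadjusted p under 0.05, against 8265 of 32349 over all tested probes in both directions. The median within the shared slide was -0.16. PSBO1 (AT5G66570), the protein that stabilises the manganese cluster of the oxygen-evolving complex, had the brightest probe. A_84_P808897 was at 6.15, 6.03 and 5.43 on the LS arrays, against 6.51, 6.08 and 6.23 on the control arrays. LS array 1 lay among the controls, and the log2 fold change was -0.40 ± 0.23 (SE, n = 3 each, limma adjusted p = 0.320), and 0.20 with spike-in scaling.

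The other proteins of the oxygen-evolving complex were near PSBO1. The locus medians were -0.57 for PSBO1, -0.66 for PSBO2, -0.45 for PSBP1, -0.57 for PSBQ1 and -0.52 for PSBQ2, and 5 of the 13 probes of these loci were separated. The small subunits PSBR, PSBW, PSBX, PSBY and PSBTn were at -0.57, -0.64, -0.40, -0.44 and -0.69. Of the 4 PSBW probes 3 were separated. PSBS, which senses lumen acidity and switches on the dissipation of excess light, had the locus median closest to 0 of the whole set at -0.22, with probes at -0.41 and -0.03, both overlapping between the groups.

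The electron carriers between and after the photosystems had a median of -0.40 over 15 probes, and 0.20 with spike-in scaling. Of these probes 5 were separated and 0 were called, against 18.6% separated and 2.45% called lower over all tested probes. Within the shared slide the median was -0.01, which was the value closest to 0 among the classes in that comparison. Plastocyanin carries electrons from the cytochrome complex to photosystem I, and its more strongly expressed form in Arabidopsis is PETE2 (AT1G20340). Probe A_84_P807230 was at 5.57, 5.07 and 5.05 on the LS arrays, against 5.77, 5.81 and 5.67 on the control arrays. The controls were all above the LS arrays, LS array 1 by a small gap, and the log2 fold change was -0.52 ± 0.19 (SE, n = 3 each, limma adjusted p = 0.141), and 0.08 with spike-in scaling. PETE1 had a single probe at -0.35, with overlapping groups.

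PETC (AT4G03280), the Rieske iron-sulphur protein of the cytochrome complex, had 3 probes between -0.47 and -0.38. Its brightest probe, A_84_P14724, was at 3.66, 3.46 and 2.76 on the LS arrays, against 4.05, 3.58 and 3.68 on the control arrays. LS array 1 lay among the controls, and the log2 fold change was -0.47 ± 0.26 (SE, n = 3 each, limma adjusted p = 0.303), and 0.13 with spike-in scaling. FD2 (AT1G60950), the main leaf ferredoxin, had 7 probes with a median of -0.28, of which 1 was separated. Its brightest probe, A_84_P18085, was at 4.80, 4.41 and 4.34 on the LS arrays, against 4.89, 4.83 and 4.55 on the control arrays. The groups overlapped, and the log2 fold change was -0.24 ± 0.19 (SE, n = 3 each, limma adjusted p = 0.457), 0.36 with spike-in scaling and 0.04 within the shared slide.

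Probes of one locus mostly gave alike values. Of the 36 loci with several tested probes, 24 had fold changes that spanned less than 0.3 on the log2 scale, and only LHCB1.4 had probes more than 1 apart. Of the loci, 34 had a median below -0.5, with 25 of these between -0.75 and -0.5 and 9 lower still, namely LHCB1.4, LHCB4.2, LHCA1, LHCB1.1, PSAN, LHCB1.5, LHCB6, LHCB1.2 and PSAE2. All tested probes were separated on 13 loci, and none on 13 others, among them the 3 LHCB2 loci, PSAF, PSBX, PSBS and PETE1. Between the called and the brightest probe of a locus, the difference within an array moved with LS by -0.80 for LHCB1.1, -0.17 for PSAN, -0.13 for LHCA1 and 0.01 for LHCB4.2, and by -2.09 for LHCB1.4.

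**Figure D3:**
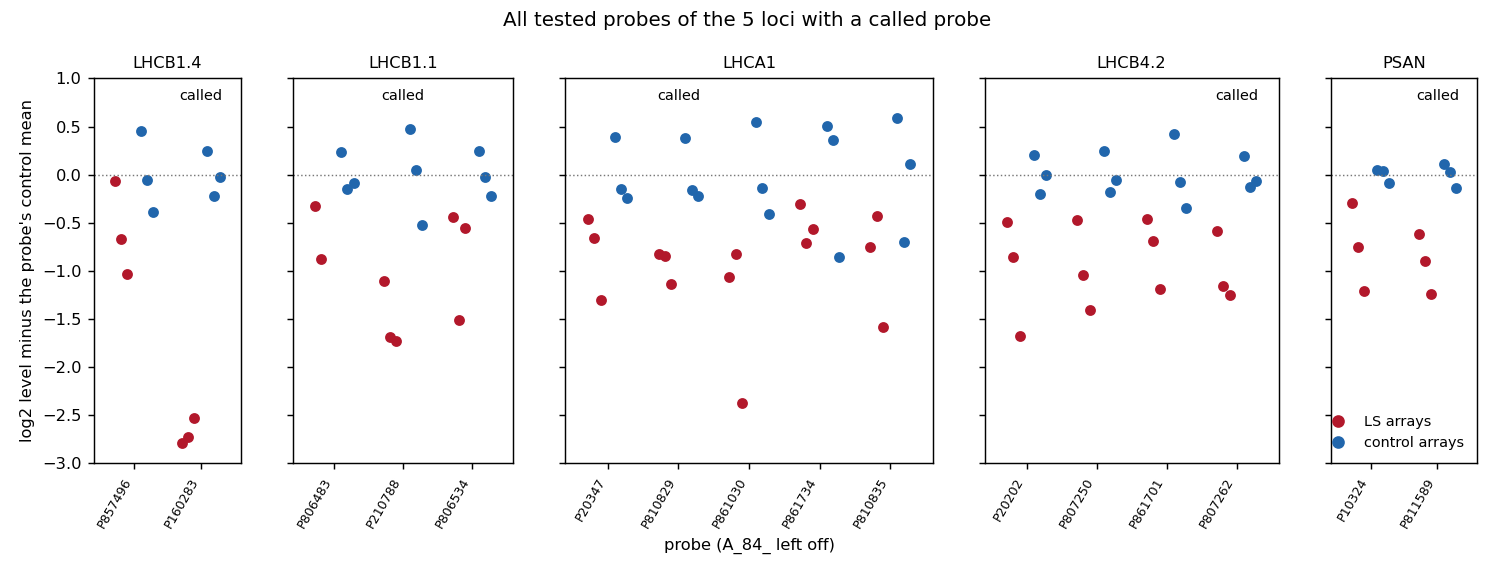
Level minus the probe's mean on the control arrays, in log2 units (vertical axis), for all tested probes of the 5 loci with a called probe. Red points are LS arrays 1 to 3 and blue points control arrays 1 to 3, left to right, and "called" marks the probe that passed. The called LHCB1.4 probe averages -2.68 on the LS arrays, apart from its other probe at -0.59, while the probes of LHCB4.2 lie between -1.01 and -0.78.

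The calls rested on all 6 arrays. Without LS array 1, 3 member probes were called, of which LHCB1.4 and LHCB4.2 were among the 5. Without any 1 of the other 5 arrays, 1 member probe was called, LHCB1.4. Within the shared slide the called probes had log2 fold changes of -2.79 for LHCB1.4, -1.11 for LHCB1.1, -0.83 for LHCA1, -0.59 for LHCB4.2 and -0.62 for PSAN, and of these only LHCB1.4 was called, with the single LS array taken to vary as the controls did.

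Genes that work beside the members were read from 3 further lists. Other nuclear genes of thylakoid electron transport, photosystem assembly and the ATP synthase (19 loci, 37 tested probes) had a median of -0.26, with 31 probes below 0. Of the 37 probes 6 were separated downward and 0 called. Over all tested probes 54% were below 0, 18.6% were separated downward and 2.45% were called lower. Genes that deliver or resemble the antenna proteins (12 loci, 18 tested probes) had a median of -0.21, with 13 below 0 and 1 called lower. That probe, A_84_P516299, belongs to ALB3, the insertase that places antenna proteins in the thylakoid membrane. It was well above background on all 3 control arrays and on 0 LS arrays. Its call (limma adjusted p = 0.0323) thus rested on LS signals that did not pass as well above background. What can be bounded is a level at least 1.28-fold lower with LS, and this bound falls short of the fold threshold for a call. For this bound each LS array was set to the lowest signal that passed as well above background there, or to the probe's own signal if larger. The other ALB3 probe was at -0.28 and was not called. Regulators of these genes (11 loci, 14 tested probes), such as GLK1, GLK2, HY5, the PIFs and GUN1, had a median of -0.12, with 10 below 0 and 0 called. The medians of all 3 lists become positive with spike-in scaling, and they were not tested against those of the members.

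Marker genes of the tissues in a seedling were read in the same fit. The 5 cotyledon mesophyll markers, genes of carbon fixation, had 34 of 36 tested probes below 0 and a median of -0.39. Of these probes 2 were called lower, both of the carbonic anhydrase CA1 (-0.88 and -0.98), against 2.45% of all tested probes. The markers were unequal, with RCA probes from -0.54 to -0.01 and SBPASE probes at -0.13 and 0.16. Those of GAPA1 ran from -0.94 to -0.45, CA1 from -1.06 to -0.24 and RBCS1A from -0.86 to 0.15. The summed level of the 5 markers, added on the linear scale, was 1157, 886 and 789 times the 75th percentile on LS arrays 1, 2 and 3. On the control arrays it was 1350, 1231 and 1123 times. The bright RBCS1A probes weighed most in this sum, with log2 control means from 4.75 to 7.44, against at most 4.49 for the other markers. In this sum LS array 1 lay just above control array 3. The 2 markers of plastids in darkness, the protochlorophyllide oxidoreductases PORA and PORB, had a median of 0.10 over 8 probes and 0 called. The LS arrays were far apart here. The median deviation from the control means was 0.175, -0.57 and 0.86 on LS arrays 1, 2 and 3. On control arrays 1, 2 and 3 it was 0.23, -0.12 and -0.18. The 6 root markers had a median of 0.04 over 12 probes and 0 called. Their summed level was 258 to 347 on the LS arrays and 361 to 400 on the control arrays. The brightest PYK10 probes weighed most in it, with log2 control means up to 7.17, against at most 4.72 for the other root markers. Within this list 2 root hair genes lay apart from the sum, with every LS array above every control array. EXPA7, an expansin, was at -0.42, -0.42 and -0.56 with LS and -1.46, -1.81 and -3.31 in the controls (log2 fold change 1.73, limma adjusted p = 0.0653). COBL9, a cell wall protein, was at 0.24, 0.35 and 0.36 with LS and -0.61, -0.79 and -2.57 in the controls (log2 fold change 1.64, limma adjusted p = 0.0893). Neither was called. The seed reserve, stomatal and epidermal markers had medians of -0.21, 0.06 and -0.35 over 9, 4 and 2 probes, with 0 called. The epidermal list was 1 gene, ATML1, whose probes differed. The brighter A_84_P12881 was at 0.002 and the dimmer A_84_P852381 at -0.70. Every marker list had all of its loci among the tested probes. The part of these markers in the members' values was not tested.

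**Figure D4:**
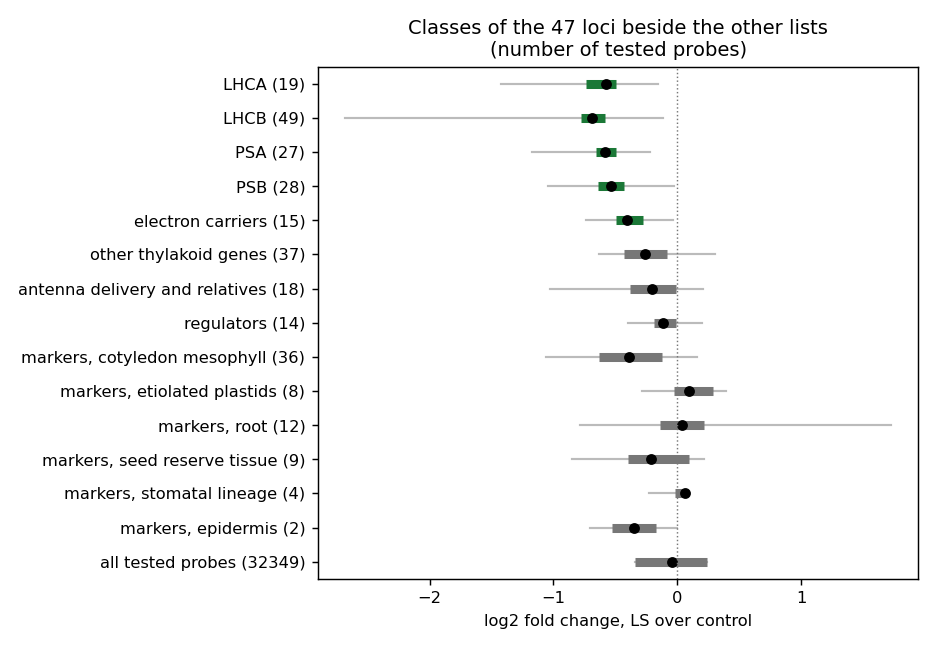
Log2 fold change, LS over control (horizontal axis), of the 5 classes of the 47 loci (green), the further lists and the tissue markers (grey), with the number of tested probes. Points are medians, thick bars run between quartiles and thin lines over the full range, which is left off for all tested probes. With scaling to the 75th percentile the class medians lie between -0.69 and -0.40, and spike-in scaling adds 0.60 to each probe measured on all 6 arrays.

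**Figure D5:**
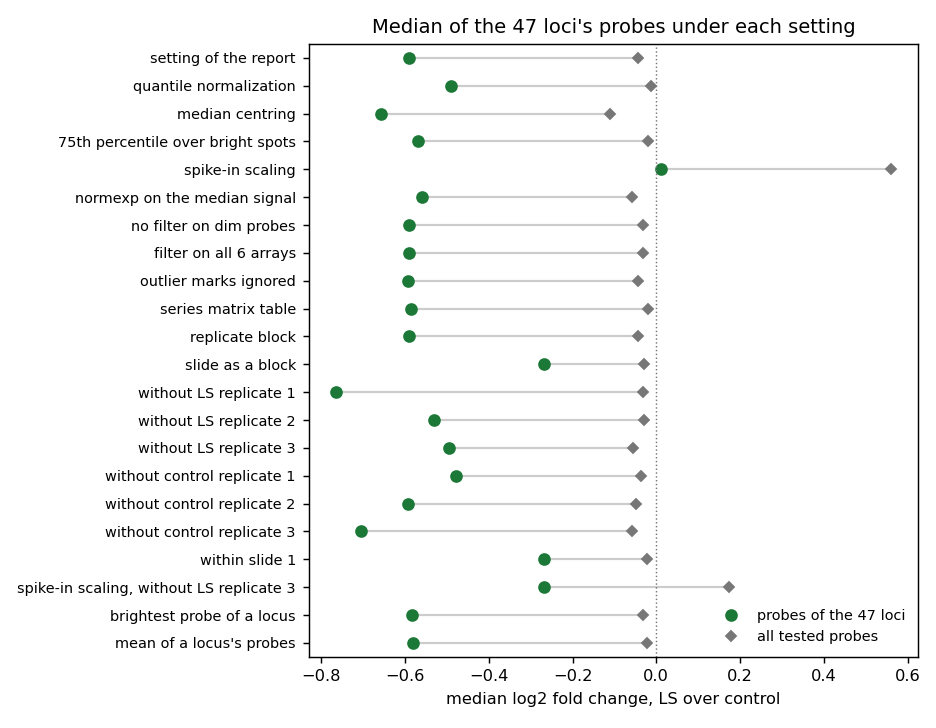
Median log2 fold change, LS over control (horizontal axis), of the probes of the 47 loci (green) and of all tested probes (grey diamonds) under each processing setting. The members' median is -0.59 in the report. It is -0.27 with the slide as a block or within the shared slide, which give the same estimate by construction. With spike-in scaling it is 0.01, and that of all tested probes is 0.56. Without LS array 3 the spike-in medians are -0.27 and 0.17.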

How the data were processed

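RNA of 6 whole-seedling samples was labelled with Cy3 and hybridised to single-colour Agilent Arabidopsis arrays. The authors scanned them with Agilent Feature Extraction 10.7.3, and the deposited scanner output gives each spot's background-subtracted processed signal as an intensity. The deposited table of 38614 spots holds a ratio, the processed signal over the array's 75th percentile, and served as an alternative. No source used here says that the samples came from separate cultures, so p-values measure only the spread between these samples, and 3 arrays a group limit the precision.

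The log2 processed signal minus each array's 75th percentile was used. The 1417 control spots were left out, spots marked as outliers were set missing and spots of a probe were averaged. The test took probes whose signal was well above background throughout at least 1 group. The 75th percentile was 1309 to 2123 on the LS arrays and 1067 to 1447 on the control arrays, 72.7% to 77.0% of spots were well above background, and no member spot was saturated. The median difference between replicates over the member probes was 0.27 to 0.55 in the LS group and 0.21 to 0.44 in the control group.

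Groups were compared with limma 3.58.1 in R 4.3.3 (lmFit, eBayes) over all 32349 tested probes. The fit was checked on simulated arrays, but no outcome of that check is given here, so it adds no weight to the calls. The members and lists were chosen with earlier results of these data known, so no list was tested. Values per array are given for called probes, for the brightest probe of LHCA, LHCB, PSA, PSB, plastocyanin, PETC and FD2, and for all probes of a locus whose probes differ in the call or by over 1. Of the further lists, called probes are named. PSAD2, EXPA7 and COBL9 were chosen after their values were seen. No coordinates are printed because the array was designed on an older genome annotation. All 47 loci were found in TAIR10.1.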

Additional observations from a re-analysis of the deposited data

How the results depend on the processing

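The count of member probes called lower, 5, was between 4 and 7 with quantile normalization, median centring, the percentile over bright spots, the stricter filter on dim probes, outlier marks kept out of use, the deposited table and no fold threshold. It was 1 with spike-in scaling, 1 with no filter on dim probes (where more probes were adjusted for), 18 with normexp on the median signal, 2 with the slide as a block and 2 within the shared slide, the last chosen after seeing the data. It was 3 with spike-in scaling without LS replicate 3, also chosen after seeing the data, 2 of them among the 5. It was 1 with the brightest probe of each locus, 2 with the mean of a locus's probes, 3 at a fold of at least 2, and 62 with limma unadjusted. The last setting called 3291 of all 32349 tested probes lower. The methods' t-test gave 26 unadjusted and 0 after Benjamini-Hochberg, against 1630 and 0 of all 32339 tested probes. Leaving out 1 array in turn gave 1 to 3. The called LHCB1.4 probe was called under all 19 alternatives run on single probes (-2.79 to -2.08), while LHCA1 was not under 15, PSAN under 12, LHCB4.2 under 11 and LHCB1.1 under 10. Among the 19 alternatives, the slide as a block and the shared slide share 1 estimate of each fold change and are not separate checks of it. The count called higher was 0 under every alternative.

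The median of -0.59 was -0.27 with the slide as a block and within the shared slide. For probes measured on LS array 1 these settings give the same estimate by construction, since the other slide held only LS arrays. Their equality is no separate evidence. The median was 0.012 with spike-in scaling, -0.27 with that scaling without LS replicate 3, and -0.76 to -0.48 without 1 array in turn. The remaining settings gave -0.66 to -0.49. The number of probes below 0 was 67 with spike-in scaling, 126 with that scaling without LS replicate 3, 118 of 138 with the slide as a block and 132 to 138 without 1 array in turn. LHCB6 A_84_P808972 and PSAE1 A_84_P11967 had no value on LS array 1. With the slide as a block their values thus compare LS arrays 2 and 3 with the controls and are not adjusted for slide. Signs turned with spike-in scaling, which by its construction shifts all probes measured on the same arrays alike, for LHCA (0.027), PSA (0.022), PSB (0.068) and the electron carriers (0.20), and for the probes of FD2 (0.36), LHCA1 A_84_P861734 (0.074), LHCB1.3 (0.019), LHCB1.4 A_84_P857496 (0.013), PETC (0.13), PETE2 (0.083) and PSBO1 (0.20). With spike-in scaling without LS replicate 3, FD2 (0.073), PETC (0.020) and PSBO1 (0.046) turned. FD2 also turned with the slide as a block and within the shared slide (0.041 in both, as the same estimate). Median centring moved the median of all tested probes to -0.11.

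With the replicate number as a block, 2 member probes were called, LHCB1.1 and LHCB1.4, and the median stayed at -0.59. Same-numbered samples did not deviate together (correlations of 0.03, -0.12 and -0.19, against -0.13 to 0.20 for samples with different numbers). LS array 1 and control array 1 also shared a slide. These few correlations cannot show whether same-numbered samples shared a culture or handling. Signal over background limited little, since 137 of the 138 tested probes were well above background on all 6 arrays, outlier marks aside.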
